A study of Mus musculus with 6 samples.

Results

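The genes described here encode molecular chaperones and their partners: the heat-shock proteins of the HSP90, HSP70, HSP110, HSP60, HSP10 and small HSP families, the J-domain proteins DNAJA, DNAJB and DNAJC, the CCT chaperonin, prefoldin and the BAG proteins. They were chosen by gene symbol, from probe sets that the array's annotation assigns to a single gene. The symbols matched 216 probe sets of 90 genes, among 18193 genes on the array. Of the 90 genes, 75 were bright enough to be tested, among 10581 tested genes in all.

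RNA came from translating ribosome affinity purification (TRAP), which pulls down tagged ribosomes of a chosen cell type with the mRNA on them. The mice carried the Slc6a4 JD60 transgene, a bacterial artificial chromosome in which regulatory sequence of the serotonin transporter gene marks serotonin neurons, on a mixed FVB and c57/bl6j background. Midbrain and brainstem were dissected, with the cerebellum removed, from male and female adults of 6 to 12 weeks. The IP group was the ribosome-bound RNA of 3 pools and the unbound group was the RNA left behind by those pulldowns, 3 samples, each from 5 mice. Both groups thus carried the same transgene and came from the same kind of mouse. Affymetrix arrays were hybridised after 2 rounds of amplification from 20 ng of RNA. No other mouse line or treatment enters, so the contrast sets serotonin-neuron ribosomes against a lysate of the whole dissected tissue, and cell type and binding to ribosomes differ together.

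Chaperones keep proteins from clumping while they fold. HSP70 binds short greasy stretches of unfolded chains, J-domain proteins bring it those chains and trigger its ATP use, and BAG proteins and HSP110 make it let go. HSP90 finishes selected clients, prefoldin hands new actin and tubulin to the CCT ring, HSP60 with its lid HSP10 folds proteins inside mitochondria, and small HSPs hold damaged proteins for later repair.

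Other probe sets of a gene are described only where they passed the same filter as tested. Log2 values are given for the probe set that read each gene, in the order of replicates 1, 2 and 3, with n = 3 arrays in each group throughout. The deposited values were normalised within each group, so the IP values were shifted by -0.23 to align the biotin hybridisation controls, and every direction below is on that scale. A gene was called, and is said to have risen or fallen in IP, where limma gave an adjusted p under 0.05 and the change was at least 2-fold. Arrays correlated at 0.996 to 0.999 within IP, 0.994 to 0.997 within unbound RNA and 0.924 to 0.932 between the groups. The labelled cell type was checked against its markers, and all 8 tested serotonin neuron markers were higher in IP, with a median log2 change of 4.62. All 11 astrocyte markers were lower, 5 of them below the detection limit of log2 5 on every IP array (Aldh1l1, Slc1a3, Sox9, Fgfr3 and Acsbg1), and their summed level ranged over 13.24 to 13.56 in IP against 15.19 to 15.57 in unbound RNA. All 9 tested oligodendrocyte markers were lower too, 2 of them below the limit on every IP array, with summed levels of 14.08 to 14.63 in IP against 16.32 to 16.55 in the unbound fraction. Their part in the chaperone results was not tested. In such mixed RNA, fewer cells of a type and less RNA per cell cannot be told apart.

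Chaperone genes were spread around no change, while the tested genes as a whole lay lower in IP. Of the 75 tested, 9 rose (12.0%) and 16 fell (21.3%), where 10.4% of all tested genes were called higher and 41.1% lower. The filter on dim genes fixed the direction of 3 of these 75 genes, all of which fell, and of 1596 of all 10581. Such genes enter both sets of shares unequally, and how much of the contrast of 21.3% with 41.1% comes from them was not tested. The same limit applies to the family shares below. Calls in either direction made up 33.3% of the chaperone genes and 51.6% of all genes. Without IP replicate 2 the number that rose was 14, and without any other single array it was 9 to 12. Another 23 passed the adjusted p but changed by less than 2-fold. The median log2 change was -0.07 for chaperone genes and -0.65 for all genes tested, a gap of 0.58, which was 0.68, 0.58 and 0.53 in the pairs of replicates 1, 2 and 3. This gap was 0.08 after quantile normalisation of all arrays, 0.51 with the filter at log2 7 and 0.08 without the filter on dim genes. Without a filter, genes at the floor of the arrays count too. Dnajb7, for one, then enters at -0.18, with 1.98 on every IP array and 2.17 on every unbound array. IP and unbound arrays did not overlap for 55 of the 75 genes, 27 with IP above and 28 with IP below, against 83.0% of all tested genes. The largest increases were those of Dnajc12, at the 98.9th percentile of all tested genes, and of 3 prefoldin genes.

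**Figure D1:**
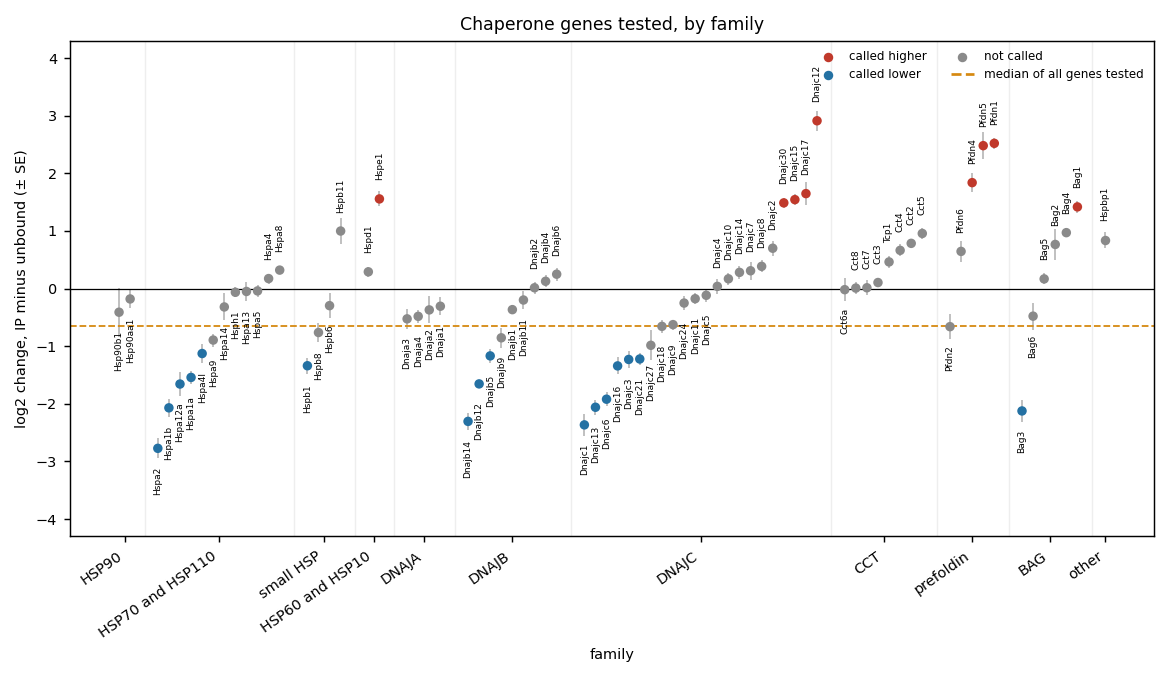
Log2 change (IP minus unbound, with its SE) of the 75 chaperone genes tested, by family, with called genes coloured and the median of all tested genes as a dashed line at -0.65. The 3 called prefoldin genes, Hspe1, Bag1 and 4 DNAJC genes stand above, and no HSP90, DNAJA or CCT gene was called.

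The 9 genes that rose also rose without scaling, after quantile normalisation and with arrays centred on either median, whereas the number that fell depended on the scaling. Of the 16 that fell, 12 were called without scaling, 6 after quantile normalisation, 7 with arrays centred on the median of expressed probe sets and 6 with the median of all probe sets. The 6 still called after quantile normalisation were Hspa2, Hspa1b, Dnajb14, Dnajc6, Dnajc13 and Bag3, and the 4 not called without scaling were Dnajb5, Dnajc3, Dnajc21 and Hspa4l. All 16 kept a negative sign under each of these. Scaling to the poly-A spike controls instead placed 71 of the 75 genes lower and 0 higher, against 9992 lower and 35 higher among all genes, and the median of all genes was then -3.37. Only Dnajc12 (0.23), Pfdn1 (-0.16), Pfdn4 (-0.84) and Pfdn5 (-0.20) were not called lower on that scale.

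IP values were often exactly equal between arrays. The same value stood on all 3 IP arrays for 8 chaperone genes (10.7%, against 20.1% of all tested genes) and on 2 of them for 23 (30.7%, against 30.3%). Only Dnajb12 had a single value on all 3 unbound arrays. Where IP values were equal, the SE rests partly on values that did not vary. The median SD was 0.13 in IP against 0.15 in unbound RNA over the chaperone genes, and 0.11 against 0.18 over all tested genes.

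The symbol rule matched 2 HSP90 genes, and neither was called, where 51.6% of all tested genes were. Hsp90ab1, a symbol that the rule would also take, was not among the genes matched, so the family was read only in part. Hsp90aa1, the stress-inducible cytosolic HSP90, read 14.27, 13.81 and 13.82 in IP and 14.27, 13.99 and 14.17 in unbound RNA, a log2 change of -0.18 ± 0.16 (SE, adjusted p = 0.316). Its other tested probe sets had changes of -0.46 and 0.02. Hsp90b1, the endoplasmic reticulum (ER) form also called GRP94, read 13.06, 11.65 and 11.99 in IP and 13.20, 12.23 and 12.51 in unbound RNA, a change of -0.41 ± 0.43 (SE, adjusted p = 0.402). The array of replicate 1 stood above the others in both groups, by 1.07 in IP and 0.69 in unbound RNA, and the groups overlapped for both genes. Leaving out 1 array moved Hsp90b1 between -0.94 and 0.01.

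Of the 12 tested HSP70 and HSP110 genes, 5 fell (41.7%) and none rose, with a family median of -0.61. Both are near the values over all tested genes, 41.1% and -0.65. The genes that fell were the stress-inducible pair Hspa1a and Hspa1b, the testis-rich form Hspa2, the atypical member Hspa12a and Hspa4l, an HSP110. The abundant housekeeping forms were not among them. Hspa8, the constitutive cytosolic HSP70 (HSC70), read 15.40, 15.37 and 15.37 in IP and 15.13, 15.06 and 15.00 in unbound RNA. All IP arrays stood above all unbound ones, but the change was small, 0.32 ± 0.07 (SE, 1.25-fold, adjusted p = 0.00699), and its tested probe sets ranged from -0.00465 to 0.47.

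Hspa1b read 9.26, 9.48 and 9.26 in IP and 11.12, 11.63 and 11.46 in unbound RNA. It fell by 2.07 on the log2 scale (± 0.15 SE, 4.20-fold, adjusted p = 3.94e-05), and its 3 tested probe sets fell by 2.07 to 2.18. Hspa1a read 6.87, 6.80 and 6.80 in IP and 8.44, 8.52 and 8.14 in unbound RNA, a change of -1.54 ± 0.12 (SE, 2.91-fold, adjusted p = 4.72e-05). These neighbouring genes encode nearly the same protein and their transcripts are alike, so which of them a probe set reads is uncertain. After quantile normalisation Hspa1b was still called, while Hspa1a was not (-0.72).

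Hspa2 was below the detection limit in IP at 3.55, 4.03 and 4.03 and read 6.50, 6.87 and 6.55 in unbound RNA. It was at least 3.12-fold lower in IP (limma adjusted p = 2.21e-05), a direction that the filter on dim genes fixed. Hspa12a read 7.34, 6.54 and 6.94 in IP and 8.70, 8.53 and 8.55 in unbound RNA, a change of -1.66 ± 0.21 (SE, 3.15-fold, adjusted p = 4.52e-04). Its second tested probe set was also called, at -2.34. Hspa4l read 9.86, 9.28 and 9.41 in IP and 10.75, 10.53 and 10.65 in unbound RNA, a change of -1.13 (adjusted p = 0.00104) that lost its call without IP replicate 2 (-0.88). Its 5 tested probe sets were all negative, from -3.15 to -0.29, and 4 of them were called lower.

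The remaining family members were not called. Hspa5, the ER HSP70 known as BiP, read 13.56 on every IP array and 13.75, 13.45 and 13.60 in unbound RNA, a change of -0.04 ± 0.10 (SE, adjusted p = 0.711), with other tested probe sets at 0.04 and 0.20. Hspa13, an HSP70 of microsomes, read 10.59, 10.33 and 10.41 in IP and 10.84, 10.32 and 10.33 in unbound RNA. Its change was -0.05, whereas its other tested probe set was called higher at 1.41. Hspa4, an HSP110 that releases HSP70 from its clients, read 11.58, 11.60 and 11.58 in IP and 11.55, 11.31 and 11.37 in unbound RNA. That probe set gave 0.17, and the other 2 tested were called lower at -1.24 and -1.60. Hsph1 had a change of -0.07 and the ribosome-associated Hspa14 of -0.32. Hspa9, the mitochondrial HSP70 mortalin, passed the adjusted p at -0.89 (adjusted p = 4.93e-04) without reaching 2-fold, and was called without IP replicate 1 (-1.05) and without unbound replicate 2 (-1.02). Its 3 tested probe sets ran from -1.55 to -0.53, and 1 of them was called lower.

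Promoter sequence was read for the chaperone genes because heat-shock genes share a known control element. In windows of 300 bases around RefSeq transcript starts (GRCm38.p6), most of each upstream of the start, the letters GAANNTTCNNGAA, a strict form of the heat-shock element bound by HSF1, stood on either strand in 0.603% of 32851 promoter windows. They occurred in windows of 4 of the 75 chaperone genes that have a window (5.33%, against 0.662% of all genes): Hspe1, Hspd1, Dnajb6 and Hsph1. Hspe1 and Hspd1 face away from each other, so the same letters lie in both of their windows. For Hspe1 the match, in capitals below, lies 89 to 72 bases before the start and consists of overlapping copies on both strands. Hspe1, chr1:55088029-55088106 on the plus strand, and Dnajb6, chr5:29735832-29735884 on the plus strand, are shown as the clearest upstream matches.
Hspe1: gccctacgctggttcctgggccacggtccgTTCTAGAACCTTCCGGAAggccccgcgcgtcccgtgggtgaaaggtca
Dnajb6: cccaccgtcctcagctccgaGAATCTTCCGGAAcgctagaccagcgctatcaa
A match describes the letters only. Of the 4 genes, Hspe1 rose, and Hspd1 (0.29), Dnajb6 (0.25) and Hsph1 (-0.07) were not called.

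Of the mitochondrial pair at that shared promoter, only Hspe1 was called. Hspe1, the HSP10 lid of the mitochondrial chaperonin, read 14.43, 14.03 and 14.03 in IP and 12.65, 12.53 and 12.64 in unbound RNA. It rose by 1.56 ± 0.13 (SE, 2.94-fold, adjusted p = 7.68e-05), and its other tested probe set rose by 2.22. Hspd1, the HSP60 barrel, read 12.22, 12.06 and 12.06 in IP and 11.85, 11.73 and 11.90 in unbound RNA, a change of 0.29 ± 0.09 (SE, adjusted p = 0.0240) that stayed under 2-fold. All IP arrays stood above all unbound arrays for both. Within each array, Hspe1 minus Hspd1 was 2.20, 1.97 and 1.97 in IP and 0.80, 0.80 and 0.75 in unbound RNA, so the Hspe1 change was larger by 1.27. That difference has no usable test, since the exact two-sided permutation test over the 20 splits of 3 against 3 arrays cannot go below p = 0.1.

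Among 4 tested small HSPs, only Hspb1 was called, lower in IP (25%, against 41.1% of all tested genes). Hspb1 (HSP27, a holder of unfolded proteins that glia and injured neurons are known to make) read 5.43 on every IP array and 6.83, 7.01 and 6.49 in unbound RNA. It fell by 1.34 (± 0.14 SE, 2.53-fold, adjusted p = 2.12e-04), but was not called after quantile normalisation or with the median of expressed probe sets. Hspb8 read 9.01, 8.51 and 8.60 in IP and 9.70, 9.32 and 9.38 in unbound RNA, a change of -0.76, against 0.74 by its other tested probe set, and was called lower without IP replicate 1 (-1.03). Hspb6 was at -0.30, with a range of -0.45 to 0.02 when single arrays were left out. Hspb11, which despite its symbol is a ciliary transport protein (IFT25), read 11.18, 10.88 and 10.93 in IP and 10.24, 9.52 and 10.22 in unbound RNA. Its change of 0.998 (adjusted p = 0.00601) fell just short of 2-fold, and it was called without IP replicate 2 (1.19) or 3 (1.02) and without unbound replicate 1 (1.18) or 3 (1.09). Cryab, the small HSP alpha-B crystallin and a known oligodendrocyte and astrocyte product, is not named by the symbol rule but fell further, by 2.65 (from 14.38 ± 0.13 in unbound RNA to 11.73 ± 0.10 in IP, SD).

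None of the 4 DNAJA genes, the J-domain proteins most like bacterial DnaJ, was called, where 51.6% of all tested genes were. Dnaja3, the mitochondrial member, had the largest change of the family, -0.53 (adjusted p = 0.0301), with 9.33, 9.84 and 9.88 in IP and 10.09, 10.17 and 10.37 in unbound RNA. Dnaja4 read 8.58, 8.81 and 8.81 in IP and 9.31, 9.08 and 9.26 in unbound RNA, a change of -0.48 (adjusted p = 0.00645). For both, every IP array stood below every unbound array. Dnaja1 (-0.31) and Dnaja2 (-0.37), the main cytosolic partners of HSC70, overlapped between groups. Of the 3 tested probe sets of Dnaja1, 1 was called lower (-1.05). The 4 tested probe sets of Dnaja2 ran from -4.24 to -0.37, the widest span of any chaperone gene, and 2 of them were called lower. When genes were read by probe sets without a shared suffix, Dnaja1 (-1.05) and Dnaja2 (-1.48) were called lower, so the absence of calls depends on the probe set used.

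Of 9 tested DNAJB genes, 3 fell (33.3%, against 41.1% of all tested genes) and none rose. Dnajb14, a J-domain protein anchored in the ER membrane, read 8.11, 8.36 and 8.51 in IP and 10.55, 10.48 and 10.86 in unbound RNA. It fell by 2.31 (± 0.15 SE, 4.94-fold, adjusted p = 2.49e-05), its other tested probe set fell by 1.71, and the call held in every scaling tried. Its relative Dnajb12 read 4.20 on each IP array and 5.86 on each unbound array, at least 1.81-fold lower, with the direction fixed by the filter. Dnajb5 read 5.74, 5.92 and 6.10 in IP and 7.04, 7.22 and 6.999 in unbound RNA, a change of -1.17 (2.25-fold, adjusted p = 2.03e-04) that was not called without scaling (-0.93).

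The stress-inducible Dnajb1 (HSP40), the standard partner of inducible HSP70, was not called. It read 12.97, 12.95 and 12.92 in IP and 13.38, 13.25 and 13.31 in unbound RNA, with IP below on every array (-0.37 ± 0.07 SE, adjusted p = 0.00390), while its other tested probe set was at 0.30. Dnajb6, a suppressor of polyglutamine aggregation, read 13.23, 12.94 and 12.94 in IP and 12.82, 12.67 and 12.88 in unbound RNA. Its change was 0.25, against -0.71 and -1.41 by its other tested probe sets, the last of which was called lower. Dnajb2, a J-domain protein enriched in neurons, was at 0.01, Dnajb4 at 0.13, and the ER members Dnajb11 and Dnajb9 at -0.20 and -0.85. Dnajb9 (adjusted p = 0.00400) was called lower without IP replicate 1 (-1.07) or unbound replicate 2 (-1.01).

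The DNAJC family had calls in both directions: of 22 tested genes, 4 rose (18.2%, against 10.4% of all) and 6 fell (27.3%, against 41.1%). Dnajc12, which is known to help fold the aromatic amino acid hydroxylases, tryptophan hydroxylase of serotonin synthesis among them, had the largest increase of all chaperone genes. It read 14.22, 14.03 and 14.03 in IP and 11.55, 10.96 and 11.04 in unbound RNA. All IP arrays lay far above the unbound ones, a rise of 2.91 ± 0.17 (SE, 7.52-fold, adjusted p = 1.70e-05). Dnajc17, a nuclear J-domain protein with an RNA-binding motif, read 10.29, 10.21 and 10.21 in IP and 8.96, 8.60 and 8.20 in unbound RNA. It rose by 1.65 ± 0.19 (SE, 3.13-fold, adjusted p = 3.45e-04), its other tested probe set was at 0.79, and the mean over its probe sets (0.76) was not called.

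The other rising pair is mitochondrial. Dnajc15, a partner of the inner-membrane import motor, read 11.92, 12.06 and 12.06 in IP and 10.33, 10.47 and 10.61 in unbound RNA, a rise of 1.54 ± 0.10 (SE, 2.91-fold, adjusted p = 2.59e-05). Dnajc30, which acts with respiratory complexes, read 11.24, 11.28 and 11.28 in IP and 9.67, 9.81 and 9.86 in unbound RNA, a rise of 1.49 ± 0.08 (SE, 2.80-fold, adjusted p = 1.22e-05). The groups did not overlap for either gene. Of the other mitochondrial J-domain genes that the symbol rule names, Dnajc11 was at -0.18 and Dnaja3, described above, at -0.53. The other tested probe set of Dnajc11 was called lower at -1.06. Hscb, a mitochondrial chaperone partner outside the symbol rule, rose by 1.18 (limma adjusted p = 0.0027).

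The genes that fell included J-domain proteins of membrane traffic. Dnajc6, the neuronal auxilin that strips clathrin from endocytic vesicles, read 10.43, 10.64 and 10.69 in IP and 12.59, 12.30 and 12.62 in unbound RNA. It fell by 1.92 (± 0.12 SE, 3.78-fold, adjusted p = 2.34e-05). Dnajc13, the endosomal protein RME-8, read 6.30, 6.67 and 6.67 in IP and 8.66, 8.48 and 8.68 in unbound RNA, a fall of 2.06 on the log2 scale (± 0.13 SE, 4.17-fold, adjusted p = 2.27e-05). Both were still called after quantile normalisation, with no overlap between groups. Dnajc5, the cysteine string protein of synaptic vesicles, was not called: it read 12.92, 13.12 and 13.20 in IP and 13.32, 13.05 and 13.22 in unbound RNA (-0.12), with 5 tested probe sets between -2.56 and 0.33.

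Dnajc1, an ER-membrane J-domain protein, read 3.80, 4.46 and 4.32 in IP, under the detection limit, and 6.46, 6.48 and 6.73 in unbound RNA. It was at least 2.94-fold lower (limma adjusted p = 6.35e-05), with the direction fixed by the filter, and it lost its call after quantile normalisation (-0.98). Dnajc16 read 6.55, 6.82 and 6.95 in IP and 8.34, 8.03 and 7.98 in unbound RNA, a change of -1.34 (2.54-fold, adjusted p = 2.57e-04), against 0.55 by its other tested probe set. Dnajc21, a factor of ribosome assembly, read 8.91, 8.76 and 8.61 in IP and 10.00, 9.93 and 10.01 in unbound RNA. It was called lower at -1.22 (2.33-fold, adjusted p = 6.31e-05), but 1 of its 3 tested probe sets was called higher at 1.49. Dnajc3 (P58IPK, an ER co-chaperone of BiP) read 7.87 on every IP array and 9.42, 8.93 and 8.94 in unbound RNA, a change of -1.23 (2.35-fold, adjusted p = 3.92e-04). These last 3 lost their call with the mean of a gene's probe sets, at -0.40 for Dnajc16, -0.09 for Dnajc21 and -0.81 for Dnajc3.

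The other DNAJC genes were not called. Dnajc2, the ribosome-bound partner of Hspa14, was at 0.70 (adjusted p = 0.00283), while 2 of its 3 tested probe sets were called higher, reaching 1.91. Dnajc8 (0.39), Dnajc7 (0.31), Dnajc14 (0.28), Dnajc10 (0.17) and Dnajc4 (0.04) were positive, and Dnajc24 (-0.25), Dnajc9 (-0.63) and Dnajc18 (-0.66) negative. A further tested probe set was called higher for Dnajc8 (1.26) and for Dnajc14 (1.40). Dnajc27 (-0.98, adjusted p = 0.0136) was called lower without IP replicate 1 (-1.39) and without unbound replicate 2 (-1.05) or 3 (-1.08).

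ER chaperones share another known promoter element, the ER stress response element, so the members that carry it are shown together. The letters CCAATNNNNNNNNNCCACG occurred, on either strand, in 0.119% of promoter windows and in windows of 3 of the 75 chaperone genes with a window, against 0.137% of all genes. These were Hspa5 (chr2:34772005-34772063, plus strand), Hsp90b1 (chr10:86705513-86705676, minus strand) and Dnajc3 (chr14:118937807-118937865, plus strand). Matches are in capitals, and Hsp90b1 has 1 on each strand.
Hspa5: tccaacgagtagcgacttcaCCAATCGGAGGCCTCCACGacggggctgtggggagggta
Hsp90b1: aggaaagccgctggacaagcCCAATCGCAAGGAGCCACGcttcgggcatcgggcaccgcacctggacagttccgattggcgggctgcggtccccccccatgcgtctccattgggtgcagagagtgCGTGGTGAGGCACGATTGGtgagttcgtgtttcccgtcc
Dnajc3: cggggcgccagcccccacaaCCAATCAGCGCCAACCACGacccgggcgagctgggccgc
Between IP and unbound RNA the 3 genes did not share a change: Hspa5 was at -0.04, Hsp90b1 at -0.41 and Dnajc3 fell by 1.23.

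Replicate 1 stood apart for a number of chaperone genes. The IP array of replicate 1 was the highest by at least 0.3 for 15 of the 75 genes (20.0%, against 11.5% of all tested genes). It was the lowest by that margin for 5 (6.67%, against 11.2%). The IP arrays of replicates 2 and 3 were highest for 0, against 3.39% and 2.39% of all tested genes. An IP array that shares its value with another cannot be the highest by any margin. The first unbound array was the highest by that margin for 12 genes (16.0%, against 14.0%). Both arrays of replicate 1 were highest for 4 (5.33%, against 3.02%): Hsp90b1, Dnajc27, Hspb8 and Dnaja1. The labels number the replicates, and what set replicate 1 apart was not tested.

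The CCT chaperonin, the ring that folds actin and tubulin, had no called subunit among the 8 tested, where 51.6% of all tested genes were called. Their median change was 0.28, and 7 of the 8 were positive. Cct5 came nearest to a call, at 13.53, 13.38 and 13.50 in IP and 12.58, 12.38 and 12.58 in unbound RNA, a change of 0.96 ± 0.09 (SE, 1.94-fold, adjusted p = 1.39e-04). It was called without IP replicate 2 (1.13) and without unbound replicate 1 (1.04). Cct2 read 14.20, 14.31 and 14.32 in IP and 13.53, 13.43 and 13.53 in unbound RNA, a change of 0.78 ± 0.08 (SE, adjusted p = 1.59e-04). For Cct4 the values were 13.68, 13.61 and 13.61 in IP and 13.04, 12.78 and 13.09 in unbound RNA (0.66, adjusted p = 0.00136), although its 5 tested probe sets ran from -1.09, which was called lower, to 0.66. Tcp1, the alpha subunit, was at 0.46 (adjusted p = 0.00529). For these 4 subunits every IP array stood above every unbound array.

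The other 4 subunits differed little between the fractions. Cct3 read 12.34, 12.24 and 12.25 in IP and 12.24, 12.12 and 12.15 in unbound RNA, a change of 0.10, with its other tested probe sets between -0.89 and -0.11. Cct7 (0.01), Cct8 (0.01) and Cct6a (-0.02) had groups that overlapped.

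Prefoldin, the complex that receives new actin and tubulin and passes them to CCT, had the highest family median, 1.84. Of its 5 tested genes, 3 rose (60%, against 10.4% of all tested genes) and none fell (against 41.1%). Pfdn1, a beta-type subunit, read 12.96, 12.78 and 12.78 in IP and 10.36, 10.37 and 10.23 in unbound RNA. It rose by 2.52 ± 0.09 (SE, 5.73-fold, adjusted p = 2.25e-06), the lowest adjusted p of the chaperone genes. Pfdn5, an alpha-type subunit also known as the MYC partner MM-1, read 13.37, 13.46 and 13.41 in IP and 11.48, 10.70 and 10.63 in unbound RNA. It rose by 2.48 ± 0.23 (SE, 5.58-fold, adjusted p = 1.26e-04), with its first unbound array 0.78 above the others. Its second tested probe set rose by 2.67, although the mean that also takes in its dim probe sets (0.90) was not called. Pfdn4, a beta-type subunit, read 12.90, 13.05 and 13.05 in IP and 11.44, 10.85 and 11.19 in unbound RNA, a rise of 1.84 ± 0.16 (SE, 3.57-fold, adjusted p = 9.02e-05).

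The remaining prefoldin subunits were not called. Pfdn6 (0.64, adjusted p = 0.0149) also stood above on every IP array, at less than 2-fold. Pfdn2 had 13.02, 12.50 and 12.81 in IP and 13.06, 13.53 and 13.72 in unbound RNA, below on every IP array (-0.66 ± 0.21 SE, adjusted p = 0.0276). Vbp1, the alpha-type subunit numbered prefoldin 3, lies outside the symbol rule and was at 0.18 (adjusted p = 0.473). Uxt, an alpha-type relative in a prefoldin-like complex, rose by 1.04, and Uri1 of the same complex fell by 1.32.

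Among the 6 tested BAG proteins, which release clients from HSP70 by displacing ADP, 1 gene rose and 1 fell. Each makes up 16.7%, where 10.4% of all tested genes were called higher and 41.1% lower. Bag1, which links HSP70 to the proteasome, read 13.82, 13.56 and 13.58 in IP and 12.27, 12.15 and 12.28 in unbound RNA, a rise of 1.42 ± 0.10 (SE, 2.67-fold, adjusted p = 3.48e-05). Bag3, a stress-induced member that routes clients to autophagy and pairs with HSPB8, read 6.21, 5.70 and 5.43 in IP and 7.91, 7.88 and 7.91 in unbound RNA. It fell by 2.12 (± 0.20 SE, 4.36-fold, adjusted p = 1.22e-04), also after quantile normalisation. Bag4 read 9.15, 9.15 and 9.10 in IP and 8.24, 8.08 and 8.18 in unbound RNA, a change of 0.97 (adjusted p = 5.97e-05), but its other tested probe set gave -0.95. Bag2, an inhibitor of the ubiquitin ligase CHIP, was at 0.77, Bag5 at 0.17 and Bag6 at -0.48. Leaving out IP replicate 2 brought a call to Bag2 (1.12) and Bag4 (1.09), and leaving out unbound replicate 1 to Bag4 (1.06). Hspbp1, which like BAG proteins drives nucleotide exchange on HSP70, was at 0.84 (adjusted p = 0.00165), and was called without IP replicate 2 (1.04).

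**Figure D2:**
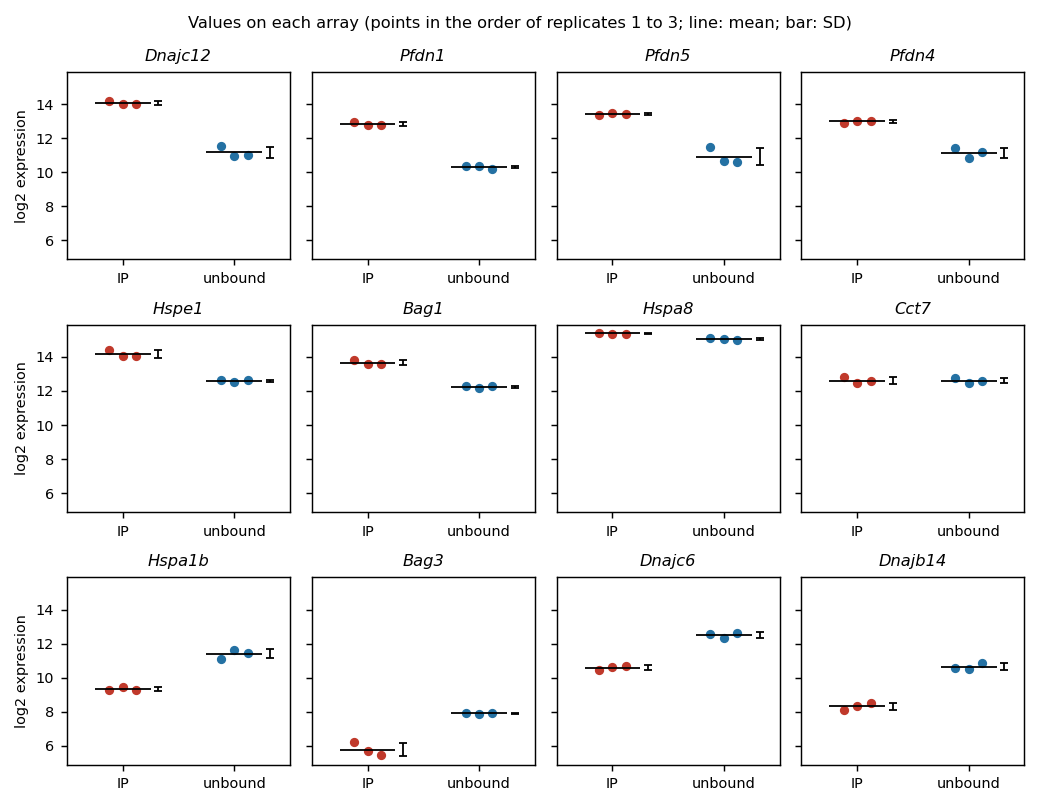
Log2 expression of 12 chaperone genes on each IP and unbound array, in the order of replicates 1 to 3, with a line at the group mean and a bar for the SD. The 3 IP arrays stand above the 3 unbound arrays for Dnajc12, Pfdn1, Pfdn5, Pfdn4, Hspe1, Bag1 and Hspa8, overlap them for Cct7, and stand below for Hspa1b, Bag3, Dnajc6 and Dnajb14.

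Not every probe set of a gene told the same story. Of the 41 chaperone genes with more than 1 tested probe set, 14 had probe sets on both sides of 0 (34.1%, against 23.9% of such genes overall). In 14 genes the changes spanned more than 1 on the log2 scale (34.1%, against 42.2%), and the median span was 0.68 (0.80 overall). Among called genes, a tested probe set of opposite sign was found for Dnajc16 and Dnajc21 only. With every probe set tested by itself, 17 chaperone probe sets were called higher and 35 lower, where 10.4% of all tested probe sets were higher and 43.0% lower.

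**Figure D3:**
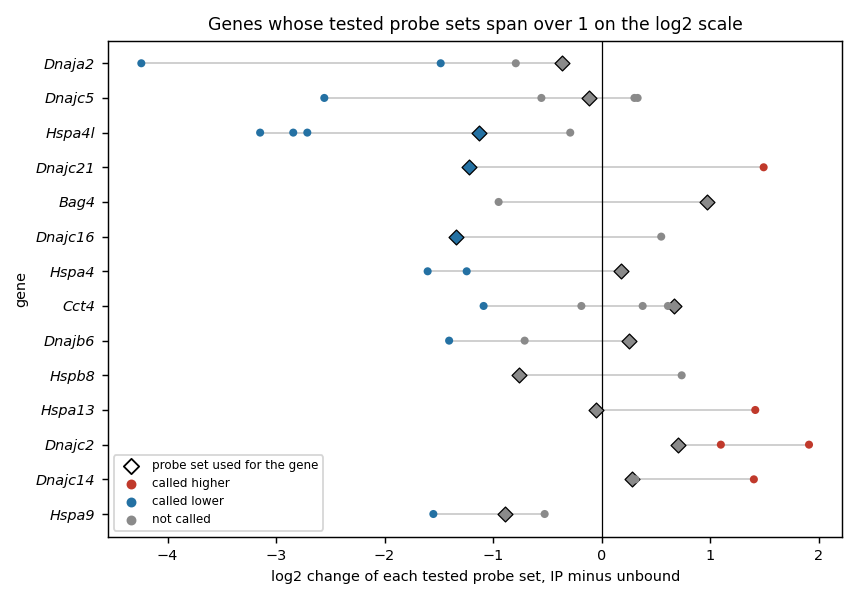
Log2 change (IP minus unbound) of each tested probe set, for the 14 genes whose probe sets spanned more than 1, with a diamond on the probe set used for the gene. Dnaja2 spans -4.24 to -0.37 and Dnajc21 spans -1.22 to 1.49.

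Other genes of the chaperone network also moved both ways. Of 87 listed genes, 73 were tested, 11 rose and 10 fell, where 10.4% of all tested genes were called higher and 41.1% lower. The median log2 change of the 73 was -0.13, against -0.65 for all genes tested. The counts of the smaller lists below are to be read beside the same shares. Among 9 mitochondrial partners, 3 rose and none fell, led by Clpp, the peptidase of the matrix Clp protease (2.59). Among 25 ER folding genes, 4 rose and 5 fell. Manf, a secreted ER-stress protein and neurotrophic factor, rose by 1.65, Cnpy2 by 1.58 and Txndc5, a protein disulfide isomerase, by 1.25, the last no longer called without IP replicate 1 (0.88). Serpinh1, the collagen chaperone HSP47, was at least 2.69-fold lower, and Pdia4 at least 1.59-fold lower, both below the detection limit on every IP array. Ero1b, an oxidase that serves disulfide isomerases, fell by 1.41.

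Among 18 tested co-chaperones of HSP90 and HSP70, 1 rose and 2 fell: Stub1, the ubiquitin ligase CHIP, rose by 1.37. Of 15 prefoldin-like genes, CCT partners and tubulin cofactors, Uxt rose, and the tubulin cofactor Tbce (-2.33) and Uri1 fell. Hsbp1, a small protein that binds the heat-shock factor HSF1, rose by 1.11, and was the only tested gene of its list of 4 on the array. Naca, the alpha subunit of the nascent-chain complex at the ribosome exit, rose by 1.47 and was the only called gene of 3 ribosome-bound chaperones tested.

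The sign of several family medians depended on the scaling. The prefoldin, HSP60 and HSP10, BAG and CCT medians were positive with the biotin controls (1.84, 0.92, 0.47 and 0.28) and stayed positive without scaling, after quantile normalisation and with either median, and were negative under the poly-A scaling. The HSP70 and HSP110 median was -0.61 with the biotin controls, -0.37 without scaling and -0.56 after quantile normalisation, but 0.14 and 0.42 with arrays centred on the median of expressed and of all probe sets. HSP90, DNAJA and DNAJB medians turned positive with those 2 centrings as well, the small HSP median (-0.53) also after quantile normalisation (0.26), and the DNAJC median (-0.15) also without scaling (0.09) and after quantile normalisation (0.32). Lower genes made up 64.0% of the chaperone calls with the biotin controls, 44.4% without scaling, 30.0% after quantile normalisation, and 21.9% and 14.3% with the 2 centrings. Over all genes the same shares were 79.8%, 71.4%, 49.7%, 48.6% and 36.7%, with medians of -0.65, -0.41, 0.04, 0.14 and 0.44.

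**Figure D4:**
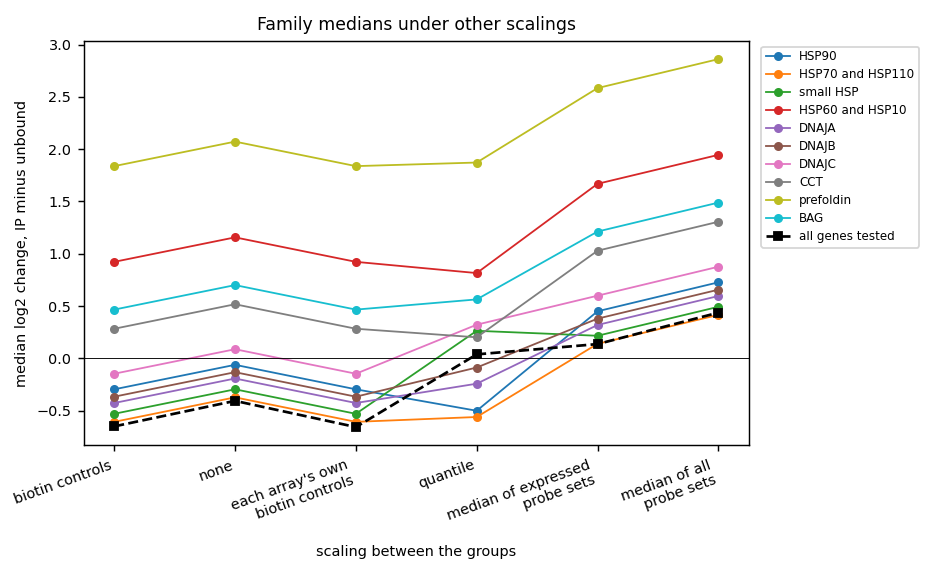
Median log2 change (IP minus unbound) of each family under 6 scalings between the groups, with the median of all tested genes as a dashed line. The prefoldin line is the highest in each, between 1.84 and 2.86, and the HSP70 and HSP110 line runs from -0.61 to 0.42.

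The genes not tested, because fewer than 3 of the 6 arrays reached log2 5, were Cct6b, Dnajb3, Dnajb7, Dnajb8, Dnajb13, Dnajc22, Dnajc25, Dnajc28, Hspa12b, Hspa1l, Hspb2, Hspb3, Hspb7, Hspb9 and Hspbap1. Dnajb3, Dnajb7, Dnajb8, Dnajb13, Hspb9, Hspa1l and Cct6b are best known from testis, and Hspb2, Hspb3 and Hspb7 from muscle. At this sensitivity their levels in the 2 fractions could not be compared.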

How the data were processed

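The members and gene lists were chosen with earlier results of these data known. The log2 values are those the authors deposited, made with GCRMA within each group, per the design text and the submitters' processing notes, which name no version. The recommended scaling to biotinylated controls was applied as a shift of -0.23 to the IP arrays, over 18 such probe sets. Gene names came from the platform annotation, through probe sets with 1 symbol (34945 of 45101), and each gene was read by its probe set with the highest mean. All 90 genes matched RefSeq (GRCm38.p6) by Entrez ID, and 0 symbols changed. A further 4 probe sets with several symbols were left out. Testing required log2 5, called the detection limit, on 3 or more of the 6 arrays. The test was limma (3.58.1, R 4.3.3; lmFit and eBayes on group, two-sided), with Benjamini-Hochberg adjustment over 10581 genes, and it was checked on simulated data. Bounds ("at least") count dim arrays at no less than 5. The number of arrays limits the precision.

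Each unbound label names a replicate number, which ties it to the IP sample of that pool. Deviations from the group means correlated at 0.27, 0.16 and 0.10 for equal numbers, though IP replicate 3 correlated at 0.21 with unbound replicate 2. A fit with the replicate block was run beside the main one.

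Every tested chaperone gene may be named. Values on every array were given for up to 4 called genes of a family in each direction, for 2 where none was called, and for genes whose probe sets disagree in sign; a few more were added after their values were seen. Of other network genes, up to 6 called in each direction were named, and Hsbp1, Hscb, Uxt and Vbp1 were added. The motif letters were searched on both strands of RefSeq promoter windows, which 75 of the 90 genes have.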

Additional observations from a re-analysis of the deposited data

How the results depend on the processing

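With the replicate block, 9 chaperone genes were called higher and 16 lower (1108 and 4360 of all genes), and pairing changed no chaperone call. A mean-variance trend in limma, a filter at log2 7, no filter, each array's own biotin controls and leaving out genes with identical values also changed no call among the chaperone genes still tested. Leaving out single arrays gave 9 to 14 chaperone genes higher.

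Counts moved most with the scaling. All genes called higher and lower numbered 2507 and 2479 after quantile normalisation, 2737 and 2586 with the median of expressed probe sets, 3563 and 2067 with the median of all probe sets, and 35 and 9992 with the poly-A controls. For chaperone genes the same pairs were 14 and 6, 25 and 7, 36 and 6, and 0 and 71, and 15 were higher without scaling. Testing every probe set gave 1748 and 7233 in all and 17 and 35 among chaperone genes, and the mean of probe sets gave 10 chaperone genes lower. The chaperone median relative to that of all genes was 0.51 with the filter at log2 7, 0.46 without identical values and 0.40 with the mean of probe sets. It was 0.078 without a filter, where genes at the floor of the arrays count too, and 0.077 after quantile normalisation. The cause was not tested.

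Under the poly-A controls, 8 of the 9 chaperone genes called higher had negative changes. The genes whose sign turned under the alternatives below were not called in the main comparison. With the mean of probe sets, Bag4 was at -0.32, Bag5 at -0.0025, Cct3 at -0.23, Cct4 at -0.095, Cct8 at -0.088, Dnajb6 at -0.45, Hspa13 at 0.17, Hspa4 at -0.84, Hspa5 at 0.068 and Hspa8 at -0.57. Probe sets without a shared suffix put Cct3 at -0.14. They also brought lower calls to Dnaja1 (-1.05) and Dnaja2 (-1.48), whose signs did not turn. With no scaling, Cct6a was at 0.21, Dnajb11 at 0.035, Dnajc11 at 0.058, Dnajc5 at 0.12, Hsp90aa1 at 0.054, Hspa13 at 0.18, Hspa5 at 0.19 and Hsph1 at 0.17. Quantile normalisation put Bag4 at -0.27, Bag6 at 0.46, Cct7 at -0.052, Dnaja4 at 0.14, Dnajb11 at 0.44, Dnajc11 at 0.58, Dnajc18 at 0.060, Dnajc24 at 0.62, Hspa13 at 0.29, Hspa14 at 0.44 and Hspb6 at 0.68. The median of expressed probe sets put Bag6 at 0.27, Cct6a at 0.73, Dnaja1 at 0.44, Dnaja2 at 0.38, Dnaja3 at 0.22, Dnaja4 at 0.26, Dnajb1 at 0.38, Dnajb11 at 0.55, Dnajc11 at 0.57, Dnajc18 at 0.090, Dnajc24 at 0.49, Dnajc5 at 0.63, Dnajc9 at 0.12, Hsp90aa1 at 0.57, Hsp90b1 at 0.34, Hspa13 at 0.70, Hspa14 at 0.43, Hspa5 at 0.70, Hspb6 at 0.45, Hsph1 at 0.68 and Pfdn2 at 0.085.

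Leaving out single arrays gave ranges across 0 of -0.047 to 0.25 for Cct3, -0.32 to 0.15 for Cct6a, -0.21 to 0.22 for Cct7, -0.18 to 0.17 for Cct8, -0.34 to 0.028 for Dnajb11, -0.078 to 0.083 for Dnajb2, -0.12 to 0.19 for Dnajc4, -0.22 to 0.0017 for Dnajc5, -0.45 to 0.026 for Hsp90aa1, -0.94 to 0.011 for Hsp90b1, -0.25 to 0.18 for Hspa13, -0.16 to 0.091 for Hspa5, -0.45 to 0.017 for Hspb6 and -0.19 to 0.065 for Hsph1. Signal close to the detection limit leaves only bounds for Hspa2, Dnajb12 and Dnajc1.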
